A study of Mus musculus with 20 samples.

Results

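The circadian and PAR bZIP genes are 10 transcriptional regulators of the daily clock and of its output: the PAR bZIP activators Tef, Dbp and Hlf, their opponent Nfil3, the Period genes Per1, Per2 and Per3, the E-box repressor Bhlhe40 and the nuclear receptors Nr1d1 and Nr1d2. They were chosen by gene name, using the newer annotation deposited with the array data, from the 30222 gene names and 39429 probes of the design. The 10 names are carried by 13 probes, each printed once. Dbp, Per1 and Nr1d2 have 2 probes each, and the other 7 genes have 1. Of the 10 genes, 6 passed the filter on dim or damaged spots in all 20 samples, 3 (Hlf, Nfil3 and Nr1d1) passed it in all 4 samples of at least 1 condition, and Per3 passed neither form of it.

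The samples were mouse dorsal root ganglion (DRG) neurons of the NIH Swiss strain, from embryos of 13.5 days, kept in culture for 3 to 4 weeks after non-neuronal cells had been suppressed with fluorodeoxyuridine. Medium without nerve growth factor and serum replaced the growth medium on the evening before each experiment, in control and stimulated dishes alike. Stimulated dishes then received 18 action potentials each minute (18/1) or 90 in every 5 min (90/5), so that the same number of impulses was given in short or long bursts, and RNA was taken after 2 hr or 5 hr. The unstimulated dishes carried electrodes that were left unconnected, came from the same dissection and were made on the day of the stimulated ones. Each of the 5 conditions has 4 samples, which the methods call biological replicas, and each condition is described as 5 pooled cultures without saying whether every sample was pooled so. The growth protocol names spinal cord as the tissue that was dissociated. All 9 sensory neuron markers examined (among them Tubb3, Prph, Isl1, Pou4f1, Calca and Scn10a) were well above background in all 4 unstimulated samples. Of 3 spinal motor neuron markers Mnx1 and Chat were not, but Slc18a3 was, as were all 3 astrocyte markers. Which tissue was taken was not tested.

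In the clock, CLOCK and ARNTL bind E-boxes and drive the Period genes, the genes for the REV-ERB receptors and the PAR bZIP genes, and the products of the Period genes and of Bhlhe40 hold back that drive. TEF, DBP and HLF activate genes through the D-box, and NFIL3 occupies the same element as a repressor, so that the level of a D-box gene follows the balance between them. Several of these genes are also known as activity-regulated or stress-regulated genes: Per1 responds to calcium and cyclic AMP through the factor CREB, and Nfil3 and Bhlhe40 are known as fast-responding genes in many cell types. The hour of day at which dishes were harvested is not given in the sources used here. A difference between 2 hr and 5 hr of stimulation and a difference in the hour of harvest therefore cannot be told apart.

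The promoters of 8 of the 10 genes (10 promoters, since Tef and Per1 have 2 each) were found in the RefSeq sequences of build GRCm38.p6, each as 300 bases that end 50 bases past the start of the transcript. They are shown for the member with the largest rise (Nfil3), for the genes with 2 starts, and for the members with a full cyclic AMP element or with D-boxes. Capitals mark, on either strand, the E-box CACGTG, the first letters TGACG of the cyclic AMP response element (which also lie within the full element TGACGTCA), the D-box TTANGTAA and the REV-ERB core letters AGGTCA.
Nfil3, chr13:52980990-52981289, minus strand: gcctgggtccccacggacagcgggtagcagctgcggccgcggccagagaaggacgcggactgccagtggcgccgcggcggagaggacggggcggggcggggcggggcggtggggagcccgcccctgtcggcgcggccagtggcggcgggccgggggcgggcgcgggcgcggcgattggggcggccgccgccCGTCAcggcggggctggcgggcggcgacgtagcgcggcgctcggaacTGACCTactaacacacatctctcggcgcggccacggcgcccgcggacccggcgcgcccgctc
Per1, upstream start, chr11:69098699-69098998, plus strand: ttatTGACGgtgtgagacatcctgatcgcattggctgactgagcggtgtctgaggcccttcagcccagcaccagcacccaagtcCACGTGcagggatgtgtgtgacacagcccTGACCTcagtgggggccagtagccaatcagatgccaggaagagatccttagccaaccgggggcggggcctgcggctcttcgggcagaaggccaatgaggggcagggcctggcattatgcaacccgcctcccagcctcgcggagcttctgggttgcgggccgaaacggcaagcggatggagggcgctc
Per1, downstream start, chr11:69099902-69100201, plus strand: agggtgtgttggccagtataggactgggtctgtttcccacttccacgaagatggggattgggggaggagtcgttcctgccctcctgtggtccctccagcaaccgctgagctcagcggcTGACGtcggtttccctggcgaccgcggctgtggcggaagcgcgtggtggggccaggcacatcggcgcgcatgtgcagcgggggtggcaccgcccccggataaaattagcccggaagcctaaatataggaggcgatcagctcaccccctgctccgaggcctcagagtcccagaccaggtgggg
Tef, upstream start, chr15:81802423-81802722, plus strand: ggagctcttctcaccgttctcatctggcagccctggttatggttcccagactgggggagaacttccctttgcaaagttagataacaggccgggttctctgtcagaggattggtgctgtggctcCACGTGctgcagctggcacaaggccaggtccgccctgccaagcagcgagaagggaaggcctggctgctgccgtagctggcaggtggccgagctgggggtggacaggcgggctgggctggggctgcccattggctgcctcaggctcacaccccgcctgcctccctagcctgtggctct
Tef, downstream start, chr15:81811164-81811463, plus strand: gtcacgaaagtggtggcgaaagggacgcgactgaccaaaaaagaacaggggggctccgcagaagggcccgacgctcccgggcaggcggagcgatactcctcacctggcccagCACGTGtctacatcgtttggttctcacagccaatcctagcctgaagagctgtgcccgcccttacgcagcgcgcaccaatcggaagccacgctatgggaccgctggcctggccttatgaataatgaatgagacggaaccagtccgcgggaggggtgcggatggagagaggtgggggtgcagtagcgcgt
Hlf, chr11:90390868-90391167, minus strand: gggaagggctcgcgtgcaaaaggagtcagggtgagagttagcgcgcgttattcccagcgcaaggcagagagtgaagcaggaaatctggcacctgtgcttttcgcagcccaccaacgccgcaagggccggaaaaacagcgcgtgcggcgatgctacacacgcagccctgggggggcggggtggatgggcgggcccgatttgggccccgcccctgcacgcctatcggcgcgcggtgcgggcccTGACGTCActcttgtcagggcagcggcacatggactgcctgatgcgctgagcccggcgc
Per3, chr4:151044616-151044915, minus strand: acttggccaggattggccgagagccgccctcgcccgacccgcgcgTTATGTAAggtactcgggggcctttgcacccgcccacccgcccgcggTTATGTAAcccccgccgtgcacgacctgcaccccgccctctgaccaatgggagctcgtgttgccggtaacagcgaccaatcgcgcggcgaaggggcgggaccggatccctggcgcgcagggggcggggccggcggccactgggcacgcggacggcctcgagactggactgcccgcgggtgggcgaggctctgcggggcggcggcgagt

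The E-box stood in 3 of the 10 member promoters (both of Tef and the upstream Per1 promoter) and in 7.15% of all 32851 promoters of this length. The letters TGACG stood in 4 (Nfil3, Hlf and both of Per1) and in 20.8% of all, the full element TGACGTCA in 1 (Hlf) and in 1.79%, and AGGTCA in 3 (Nfil3, the upstream Per1 promoter and Nr1d2) and in 16.3%. The D-box was found in Per3 alone, where TTATGTAA occurs 2 times, and in 2.32% of all promoters. The promoters of Dbp and Nr1d1 hold none of these letters in this window. Matches are a description of the letters and no sign of binding. Of the probes, that of Nr1d1 is shown because its annotated match on build mm9, chr11:98630526-98631028 on the minus strand, is longer than the 60 bases of the probe.
Nr1d1 probe: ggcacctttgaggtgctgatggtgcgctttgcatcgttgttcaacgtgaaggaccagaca

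RNA was read on 10 Agilent arrays, each with a sample in the Cy3 colour and another sample of the same condition in Cy5. Arrays 1 and 2 (unstimulated) and arrays 3 and 4 (18/1 2 hr) were on slide 1. Arrays 5 and 6 (18/1 5 hr) and arrays 7 and 8 (90/5 2 hr) were on slide 2, and arrays 9 and 10 (90/5 5 hr) were on slide 3. Between 3138 and 14642 spots in each sample of arrays 5, 6 and 8 were marked non-uniform by the scanner software, against 6 to 139 in each sample of the other 7 arrays. Effects of slide and of condition cannot be told apart, except between 18/1 2 hr and unstimulated and between 90/5 2 hr and 18/1 5 hr. Of 4 known activity-regulated genes examined as a check of the stimulation, Nr4a1 (by 4.43 to 5.50 on the log2 scale), Npas4 (4.62 to 5.80) and Fos (3.36 to 4.44) were higher than in unstimulated neurons in each stimulated condition. Egr1 was called at 90/5 2 hr (2.70, adjusted p = 0.00707) and 90/5 5 hr (3.17, adjusted p = 0.0323), and not at 18/1 2 hr (2.70, adjusted p = 0.445) or 18/1 5 hr (0.99, adjusted p = 0.174). Values below are normalized log2 signals of a probe. They can be compared between samples and not between genes, and in these bulk cultures fewer cells that express a gene and less RNA per cell cannot be told apart.

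Against unstimulated neurons, the clearest member was Nfil3, which rose at 18/1 5 hr and at 90/5 2 hr. Nr1d1 fell at 18/1 5 hr, and Bhlhe40 rose and Tef fell there with adjusted p-values just under the threshold of 0.05. Of the 9 members tested, 4 were called at 18/1 5 hr (2 higher, 2 lower), where 44.6% of the 10355 genes that passed the filter in all samples and 37% of the 18744 that passed it within a condition were called as well. In the 90/5 2 hr samples 1 of 9 was called (Nfil3, higher), beside 7.03% and 5.13% of those genes. At 18/1 2 hr 0 of 9 were called, beside 0.0193% and 0.0213%. At 90/5 5 hr 0 of 9 were called, beside 0.0676% and 0.149%. In limma, before adjustment, 1 of 9 members at 18/1 2 hr had a p under 0.05, beside 0.898% and 0.587% of genes, and 4 of 9 at 90/5 5 hr, beside 3.69% and 3.22%. The methods' t-test, unadjusted and with its fold limits, passed 2 members at 18/1 2 hr (2.06% and 1.55% of genes) and 3 at 90/5 5 hr (5.57% and 5.14%). The median difference of the 9 members was -0.11 after 2 hr of 18/1 and 0.44 after 5 hr, where the medians of the 10355 genes were 0 and -0.23. With 90/5 the member medians were 0.37 and 0.09, beside -0.08 and -0.01 over all genes. The 4 comparisons share the same unstimulated samples.

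**Figure D1:**
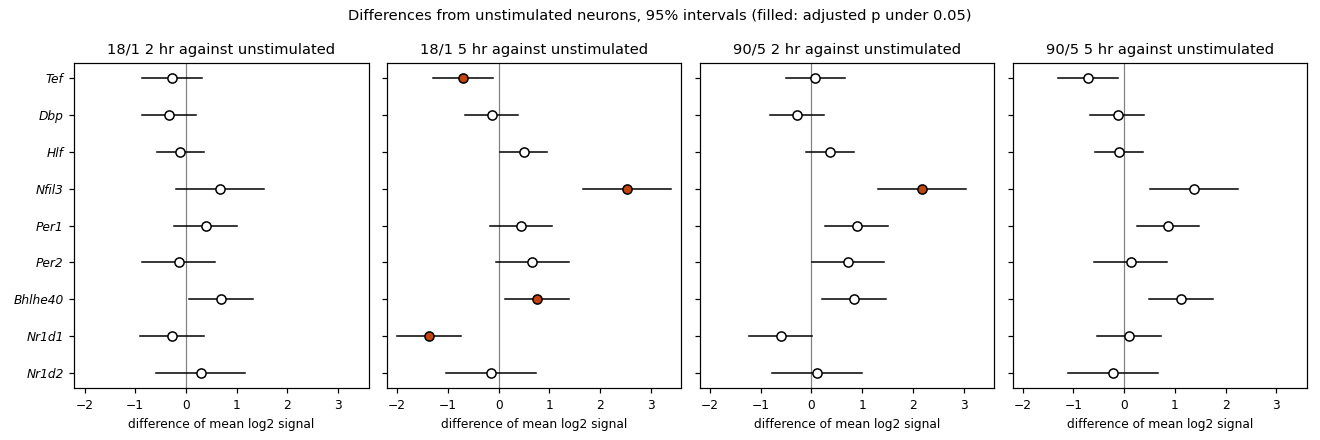
Difference of the mean log2 signal from unstimulated neurons for the 9 members tested, in each stimulated condition, with 95% confidence intervals from the limma fit (4 samples per condition). Filled points had an adjusted p under 0.05: 4 members at 18/1 5 hr and Nfil3 at 90/5 2 hr.

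At 90/5 5 hr the result depended on which arrays were in the fit and on the array block. With all arrays and no array block, the members called were Bhlhe40 (1.12, adjusted p = 0.0166) and Nfil3 (1.38, adjusted p = 0.0247). That fit treats the samples of an array as independent, although they were correlated (0.529 and 0.639 by filter), so its p-values are less cautious. With slide 2 left out, the differences of Bhlhe40 (1.12, adjusted p = 0.0053), Nfil3 (1.38, adjusted p = 0.00554) and Tef (-0.71, adjusted p = 0.0244) were called at unchanged size, beside 2.63% and 3.64% of genes by the filters in all samples and within a condition. The same 3 members were called with the replicate number as a block (adjusted p = 0.00689, 0.0122 and 0.0292), beside 3.65% and 4.01%. That fit too holds no samples of slide 2. Like-numbered unstimulated and 90/5 5 hr samples deviated together in replicate 1 (correlation 0.485) and little or not in replicates 2 to 4 (0.124, 0.075 and -0.0529). The block was therefore not taken to pair them. In the fit of only the conditions compared, also without slide 2, Bhlhe40 (adjusted p = 0.0369) and Nfil3 (adjusted p = 0.0392) were called and Tef was not (adjusted p = 0.0799). For this fit and the fit without array block, the shares of all genes called were not counted. Both groups of this comparison lie outside slide 2, whose samples enter the full fit through the shared estimates of spread, colour and array correlation and through the choice of genes.

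Counting samples rather than fitting them, Bhlhe40 was the only member in which all 16 stimulated samples lay above all 4 unstimulated samples, as in 0.635% of the 18744 genes with either direction allowed. At 18/1 2 hr it was also the only member without overlap (5.63% of those genes). For 18/1 5 hr 4 members did not overlap with the unstimulated samples, Bhlhe40, Hlf and Nfil3 above and Nr1d1 below (52.6% of genes), although only 1 of the 8 Hlf spots compared passes the spot filter. For 90/5 2 hr they were Bhlhe40, Per1 and Nfil3 above and Dbp below (28.2%), and at 90/5 5 hr Bhlhe40, Per1 and Nfil3 above and Tef below (14.2%).

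**Figure D2:**
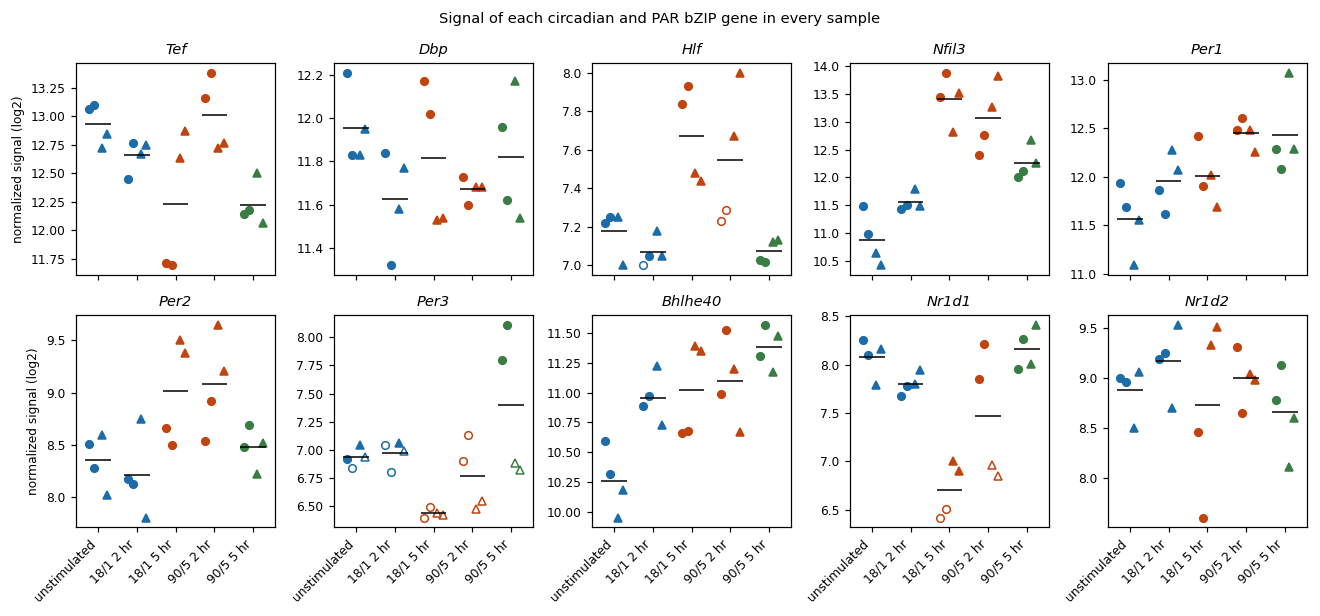
Normalized log2 signal of each member in the 20 samples, by condition. Blue, red-orange and green stand for slides 1, 2 and 3, circles and triangles for the first and second array of a condition, open symbols for spots not well above background, and lines for the means of 4 samples. All 16 stimulated Bhlhe40 samples lie above the highest unstimulated sample, at 10.59.

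Tef encodes thyrotroph embryonic factor, a PAR bZIP activator that also has functions outside the clock, in metabolism and cell survival. Its probe read 13.06, 13.10, 12.72 and 12.84 in unstimulated replicates 1 to 4, and 12.14, 12.18, 12.50 and 12.06 at 90/5 5 hr. After 5 hr of 18/1 it read 11.71 and 11.69 on array 5, and 12.63 and 12.87 on array 6. For 90/5 2 hr the values were 13.16 and 13.38 on array 7 and 12.72 and 12.76 on array 8. The 90/5 5 hr samples were thus all below the unstimulated ones. At 18/1 5 hr the samples of array 5 and the value of 12.63 on array 6 were below all unstimulated ones. The value of 12.87 on array 6 lay within the unstimulated range. At 18/1 2 hr Tef lay between 12.45 and 12.76.

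The difference from unstimulated neurons was -0.70 ± 0.28 (SE) at 18/1 5 hr (1.63-fold lower, adjusted p = 0.0483) and -0.71 ± 0.28 at 90/5 5 hr (1.64-fold lower, adjusted p = 1). The first of these calls was lost in 31 of 44 alternative analyses, 21 of which left out a single sample or array. Leaving out any of arrays 1 to 5, 9 or 10 ended it. The difference was -1.23 without array 6 and -0.18 without array 5 (adjusted p = 0.602). At 2 hr the differences were -0.27 ± 0.28 with 18/1 and 0.07 ± 0.28 with 90/5. Between 2 hr and 5 hr of the 90/5 pattern Tef differed by -0.79 ± 0.28 (adjusted p = 0.0894), and without arrays 5, 6 and 8 by -1.05 (adjusted p = 0.00101).

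Dbp, the D-site binding protein, is a PAR bZIP activator with a strong daily rhythm in many tissues, and its probes gave different values. The probe used for the gene, at chr7:52965461-52965520 of mm9, read 11.83 to 12.21 in unstimulated neurons, 11.32 to 11.84 at 18/1 2 hr and 11.53 to 12.17 at 18/1 5 hr. It read 11.60 to 11.73 at 90/5 2 hr, below every unstimulated sample, and 11.54 to 12.17 at 90/5 5 hr. Its differences from unstimulated neurons, -0.33 ± 0.26, -0.14 ± 0.26, -0.29 ± 0.26 and -0.13 ± 0.26 in the same order, were all below 0 and none was called.

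The other Dbp probe lies upstream in the same transcript, at chr7:52965322-52965381. It read 11.61 to 12.56 in unstimulated neurons and 10.58 to 11.24 at 18/1 5 hr, without overlap, as in 52.6% of the 18744 genes. When every probe was tested in place of 1 per gene, it was lower at 18/1 5 hr by -1.20 ± 0.31 (adjusted p = 0.00539), where the first probe gave -0.14 ± 0.27 (adjusted p = 0.716). The share of all probes called was not counted, and 37% of the 18744 genes were called there. This upstream probe was also called for 90/5 against 18/1 at 5 hr (0.94 ± 0.31, adjusted p = 0.0215) and for 5 hr against 2 hr of 18/1 (-0.85 ± 0.31, adjusted p = 0.0363). The first probe was called in neither. Against unstimulated neurons, the upstream probe differed by -0.75 ± 0.31 at 90/5 2 hr (adjusted p = 0.18), -0.35 ± 0.31 at 18/1 2 hr and -0.26 ± 0.31 at 90/5 5 hr. The probes thus gave like differences at 18/1 2 hr and 90/5 5 hr and unlike ones in the conditions of slide 2. The difference between probes was not tested.

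Hlf, hepatic leukaemia factor, is the third PAR bZIP activator and was close to background in most samples. In unstimulated neurons the spot stood at 1.33 to 1.81 times its background, with 18/1 2 hr at 1.48 to 1.83 and 90/5 5 hr at 1.69 to 2.52. It passed the filter only through 90/5 2 hr, where it stood at 2.54 to 7.94 times, with log2 signals of 7.23 and 7.29 on array 7 and 7.67 and 8.0 on array 8. The spots of array 7 were not well above background. After 5 hr of 18/1 it read 7.84 and 7.93 on array 5 and 7.48 and 7.44 on array 6, at 5.17 to 12.8 times its background, and 3 of these 4 spots were marked non-uniform. Unstimulated samples read 7.0 to 7.25, below every 18/1 5 hr sample. The difference was 0.49 ± 0.23 at 18/1 5 hr (adjusted p = 0.0928) and 0.37 ± 0.23 at 90/5 2 hr (adjusted p = 0.382), and it was -0.11 ± 0.23 at 18/1 2 hr and -0.10 ± 0.23 at 90/5 5 hr. The 90/5 2 hr difference was 0.08 without arrays 5, 6 and 8 and 0.65 without array 7 (adjusted p = 0.0396). These are descriptions, since Hlf was tested only because it passed the filter at 90/5 2 hr and no unstimulated spot passes it.

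Nfil3 encodes the bZIP repressor that competes with TEF, DBP and HLF for the D-box, and it had the largest differences from unstimulated neurons of the 9 members tested in each stimulated condition but 18/1 2 hr, where Bhlhe40 differed by 0.69 and Nfil3 by 0.67. Its probe, at chr13:53062578-53062637 of mm9, read 11.48, 10.98, 10.65 and 10.42 in the unstimulated replicates, and 11.43, 11.51, 11.80 and 11.48 at 18/1 2 hr. It read 13.44 and 13.88 on array 5 and 12.81 and 13.52 on array 6 at 18/1 5 hr, then 12.41 and 12.77 on array 7 and 13.26 and 13.82 on array 8 at 90/5 2 hr. At 90/5 5 hr the replicates read 12, 12.11, 12.67 and 12.26. Every sample of these last 3 conditions lay above every unstimulated and every 18/1 2 hr sample. The spot was well above background in all 20 samples and saturated in none, and it missed the stricter filter through a non-uniform mark in 1 sample, in Cy3 on array 5.

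Nfil3 was higher than in unstimulated neurons by 2.53 ± 0.42 at 18/1 5 hr (5.78-fold, adjusted p = 0.000209) and by 2.18 ± 0.42 at 90/5 2 hr (4.54-fold, adjusted p = 0.00495). The difference was 1.38 ± 0.42 at 90/5 5 hr (2.60-fold, adjusted p = 0.67) and 0.67 ± 0.42 at 18/1 2 hr (1.59-fold, adjusted p = 1). The call at 18/1 5 hr held in all 44 alternatives, with differences of 2.18 to 2.88. That at 90/5 2 hr was lost without array 2 (1.84, adjusted p = 0.166) and in the methods' t-test after adjustment (2.22, adjusted p = 0.154). The 6 highest Nfil3 values came from arrays 5, 6 and 8, which carried the most non-uniform spots. Array 7, with 45 and 139 such spots, was also above all unstimulated samples. With arrays 5, 6 and 8 left out, so that array 7 alone stood for 90/5 2 hr, the difference was 1.71 (adjusted p = 0.001). With only array 8 left out the difference was the same and its adjusted p was 0.0479. The shares of all genes called in these fits were not counted. The part of spot quality in the Nfil3 values was not tested.

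**Figure D3:**
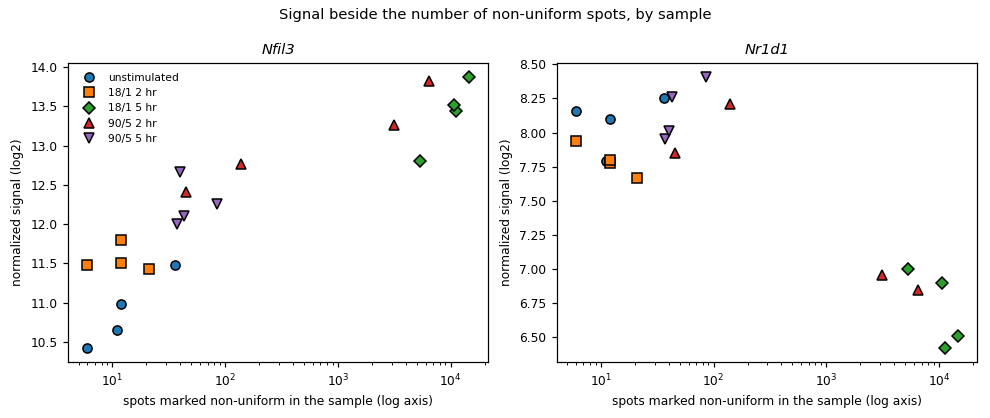
Normalized log2 signal of Nfil3 and Nr1d1 in each of the 20 samples against the number of spots marked non-uniform in that sample, on a log axis, with a symbol for each condition. The 6 samples with 3138 or more such spots hold the 6 lowest values of Nr1d1, and the 6 highest values of Nfil3.

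Per1 is the Period gene best known for a fast response to calcium and cyclic AMP. Its probe at the end of the transcript, chr11:68923364-68923423 of mm9, read 11.09 to 11.94 in unstimulated neurons and 11.62 to 12.28 at 18/1 2 hr. It read 11.69 to 12.42 at 18/1 5 hr, 12.26 to 12.60 at 90/5 2 hr and 12.08 to 13.07 at 90/5 5 hr. With the 90/5 pattern all 8 samples were above the unstimulated ones, and with 18/1 the groups overlapped. The differences were 0.39 ± 0.30 and 0.44 ± 0.30 with 18/1 at 2 hr and 5 hr, and 0.89 ± 0.30 (1.85-fold, adjusted p = 0.0727) and 0.86 ± 0.30 (1.82-fold, adjusted p = 0.931) with 90/5. None was called. The first of the 90/5 values was called when samples were centred on their medians (1.08, adjusted p = 0.0488), without array 5 or array 6 (adjusted p = 0.0246 and 0.026) and without arrays 5, 6 and 8 (0.97, adjusted p = 0.0364). That centring also turned the 18/1 5 hr difference to -0.20 (adjusted p = 0.614).

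The direct comparison of the patterns gave no call for Per1. At 2 hr 90/5 exceeded 18/1 by 0.50 ± 0.30 (adjusted p = 0.361) and at 5 hr by 0.42 ± 0.30 (adjusted p = 0.254). With samples centred on their medians the value at 5 hr was 1.17 (adjusted p = 0.0033), where the median of all genes moved from 0.23 to 0.93. A second probe, at chr11:68919895-68919954, lies upstream of the first. It read 7.46 to 7.78 in unstimulated neurons and was not well above background in 2 samples at 18/1 5 hr and 3 at 90/5 2 hr. With 90/5 it differed from unstimulated neurons by -0.73 ± 0.36 at 2 hr and -0.04 ± 0.36 at 5 hr. Neither difference was called. The value at 2 hr is limited by the spots near background, so its direction is not compared with that of the first probe. The earlier annotation does not name this second probe Per1.

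**Figure D4:**
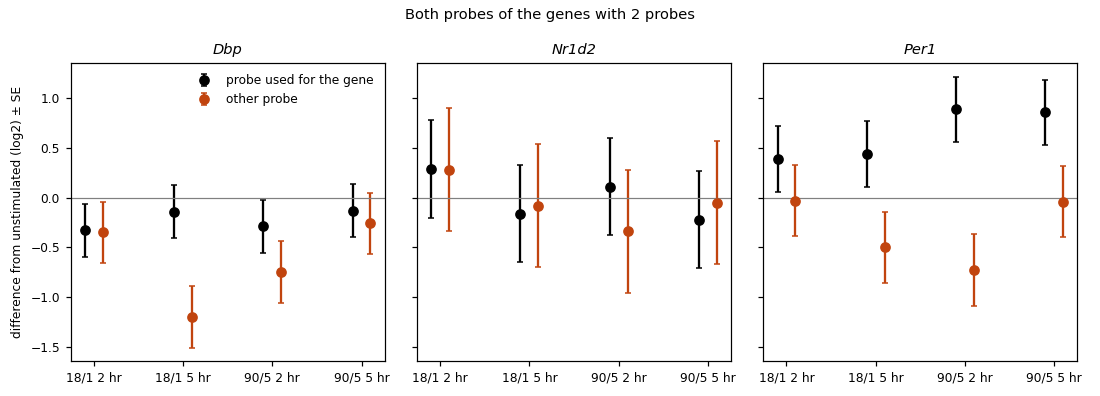
Difference from unstimulated neurons (log2, with standard errors from the limma fit of every probe) for both probes of Dbp, Nr1d2 and Per1 in the 4 stimulated conditions. The Dbp probes lie apart at 18/1 5 hr, at -0.14 and -1.20. The Per1 probes read 0.89 and -0.73 at 90/5 2 hr. There the second Per1 probe was well above background in 1 of 4 samples, which limits its value. The earlier annotation does not name that probe Per1.

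Per2 encodes a Period protein that the core clock needs for a stable rhythm. It read 8.02 to 8.59 in unstimulated neurons, 7.80 to 8.75 at 18/1 2 hr and 8.22 to 8.69 at 90/5 5 hr. After 5 hr of 18/1 it read 8.66 and 8.50 on array 5 and 9.50 and 9.38 on array 6, and at 90/5 2 hr it read 8.53 and 8.92 on array 7 and 9.65 and 9.21 on array 8. The higher values thus came from 1 of the 2 arrays of each condition on slide 2. The differences were 0.66 ± 0.35 at 18/1 5 hr (adjusted p = 0.126), 0.73 ± 0.35 at 90/5 2 hr (adjusted p = 0.212), -0.14 ± 0.35 at 18/1 2 hr and 0.13 ± 0.35 at 90/5 5 hr. Without array 5 that at 18/1 5 hr was 1.09 (adjusted p = 0.0189), and without array 6 it was 0.23. That at 90/5 2 hr was 0.38 without arrays 5, 6 and 8 and 1.08 without array 7 (adjusted p = 0.0308).

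Per3, the Period gene that the core rhythm needs least, was near background in most samples, and no difference was tested in the fits with a spot filter. It was well above background in 5 of 20 samples: 2 unstimulated, 1 at 18/1 2 hr and both samples of array 9 at 90/5 5 hr. In unstimulated neurons the spot stood at 1.28 to 1.54 times its background. On array 9 it stood at 5.42 and 8.91 times, with log2 signals of 7.80 and 8.11, while on array 10, of the same condition, it stood at 1.53 and 1.98 times, with 6.88 and 6.82. On slide 2 none of the 8 samples was well above background. Its promoter is the one printed above with 2 D-boxes, the element read by the PAR bZIP factors and NFIL3.

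Bhlhe40 (also known as Dec1) is a repressor that binds E-boxes, and every stimulated sample read higher than every unstimulated one. It read 10.59, 10.32, 9.95 and 10.18 in the unstimulated replicates and 10.89, 10.97, 11.22 and 10.73 at 18/1 2 hr. After 5 hr of 18/1 it read 10.66 and 10.68 on array 5 and 11.39 and 11.35 on array 6, and at 90/5 2 hr 10.99 and 11.53 on array 7 and 11.20 and 10.67 on array 8. The 90/5 5 hr replicates read 11.31, 11.57, 11.17 and 11.48, the highest mean of the 5 conditions at 11.38 ± 0.18 (SD, n = 4) against 10.26 ± 0.27 in unstimulated neurons.

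Like-numbered unstimulated and 18/1 2 hr samples deviated together, and in a fit of these conditions alone with the replicate number as a block, added after the data were seen, Bhlhe40 was the 1 member of 9 called (0.69, adjusted p = 0.0396), beside 2% and 0.224% of genes by the filters in all samples and within a condition. The pairing in that block is assumed, since unlike-numbered samples were not compared. With 90/5 5 hr in the blocked fit as well Bhlhe40 was not called (0.69, adjusted p = 0.235). The differences from unstimulated neurons in the full fit were 0.69 ± 0.30 at 18/1 2 hr (1.61-fold, adjusted p = 1), 0.76 ± 0.30 at 18/1 5 hr (1.69-fold, adjusted p = 0.0454), 0.84 ± 0.30 at 90/5 2 hr (1.79-fold, adjusted p = 0.0985) and 1.12 ± 0.30 at 90/5 5 hr (2.18-fold, adjusted p = 0.462). Of these, the call came at 18/1 5 hr, in the comparison with the highest share of genes called, although 2 of the other differences were larger. It was lost with the same direction in 24 of 44 alternatives, 17 of which left out a single sample or array. Leaving out any of arrays 1 to 4, 6, 9 or 10 ended it. The difference was 0.41 without array 6 (adjusted p = 0.25), 0.57 without array 2 (adjusted p = 0.31), and turned to -0.04 (adjusted p = 0.937) when samples were centred on their medians alone. That scaling moved the median of all 10355 genes at 18/1 5 hr from -0.23 to -0.81. Without arrays 5, 6 and 8 the differences at 90/5 2 hr (1.00, adjusted p = 0.00758) and 90/5 5 hr (1.12, adjusted p = 0.00447) were called. In the comparisons between patterns and between times, no difference was called for Bhlhe40, but with samples centred on their medians 90/5 exceeded 18/1 at 5 hr by 1.28 (adjusted p = 0.0071) in place of 0.36.

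Nr1d1 encodes REV-ERB alpha, a receptor that represses the clock gene Arntl and also Nfil3. It read 8.25, 8.10, 7.79 and 8.16 in the unstimulated replicates, 7.67 to 7.94 at 18/1 2 hr and 7.95 to 8.41 at 90/5 5 hr. At 18/1 5 hr it read 6.42 and 6.51 on array 5 and 7.0 and 6.90 on array 6. At 90/5 2 hr array 7 read 7.85 and 8.21, within the unstimulated range, and array 8 read 6.96 and 6.85. The 6 low samples are those of arrays 5, 6 and 8, the arrays with the many non-uniform spots, and in 4 of them, both samples of arrays 5 and 8, the Nr1d1 spot was not well above background. The Nr1d1 spot itself was marked non-uniform in none of the 20 samples.

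Nr1d1 was lower at 18/1 5 hr than in unstimulated neurons by -1.37 ± 0.30 (2.58-fold, adjusted p = 0.00197), and the call held in all 44 alternatives, with differences of -1.76 to -1.12. No alternative is free of arrays 5 and 6, since they carry the whole condition. The other differences from unstimulated neurons were -0.27 ± 0.30 at 18/1 2 hr, -0.61 ± 0.30 at 90/5 2 hr (adjusted p = 0.265) and 0.09 ± 0.30 at 90/5 5 hr. In the 90/5 2 hr comparison, array 8 alone gave -1.17 (adjusted p = 0.0036) and array 7 alone gave -0.04 (adjusted p = 0.991). The value of array 8 is limited by its Nr1d1 spots, which were not well above background. The part of spot quality in the low values was not tested.

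Nr1d2 encodes REV-ERB beta. The probe used for the gene read 8.50 to 9.06 in unstimulated neurons, 8.70 to 9.53 at 18/1 2 hr, 8.65 to 9.31 at 90/5 2 hr and 8.11 to 9.13 at 90/5 5 hr. On the arrays of 18/1 5 hr it read 8.46 and 7.60 on array 5 and 9.33 and 9.51 on array 6, and the SD of that condition, 0.88, was the largest of the 5. The differences from unstimulated neurons ranged from -0.22 ± 0.42 at 90/5 5 hr to 0.29 ± 0.42 at 18/1 2 hr, with 95% intervals that all include 0. The annotations place this probe on different chromosomes of mm9, chr14:19036568-19036627 in the earlier and chr19:40271435-40271494 in the later. The second probe, at chr14:19037253-19037312 in both, was split in the same way at 18/1 5 hr, with 8.21 and 7.42 on array 5 and 9.22 and 9.62 on array 6, and was not called either.

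The patterns were then compared with each other at each time, to ask whether the grouping of the same number of action potentials mattered for these genes. At 2 hr, 1 of 9 members was called, beside 5.02% and 3.92% of genes by the filters in all samples and within a condition: Nfil3 was higher with 90/5 than with 18/1 by 1.51 ± 0.42 (2.85-fold, adjusted p = 0.0472). At 5 hr 3 of 9 were called, beside 45.5% and 38.2%. Nfil3 was lower with 90/5 than with 18/1 by -1.15 ± 0.42 (adjusted p = 0.035) and Nr1d1 was higher by 1.45 ± 0.30 (2.74-fold, adjusted p = 0.00112), a call that held in all 44 alternatives, although 2 of the 4 Nr1d1 spots at 18/1 5 hr were not well above background. The third call was Hlf, at -0.60 ± 0.23 (adjusted p = 0.043; lost in 22 of 44), but only 3 of its 8 spots in this comparison pass the spot filter and the gene was tested only because it passed at 90/5 2 hr, so the value is given as a description. The Nfil3 order was therefore reversed between the times: 90/5 above 18/1 at 2 hr and below it at 5 hr. The call at 2 hr was lost in 29 of 45 alternatives, and the difference was 1.04 without array 8 (adjusted p = 0.402). That at 5 hr was lost in 14 of 44, and the difference was -0.90 without array 5 (adjusted p = 0.109). In both comparisons the higher group lay on slide 2 and the lower on another slide.

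Between 2 hr and 5 hr of the same pattern, 3 of 9 members were called with 18/1, beside 44.2% and 36.4% of genes, and 0 of 9 with 90/5, beside 9.01% and 7.9%. With 18/1, Nfil3 rose from 2 hr to 5 hr by 1.86 ± 0.42 (3.63-fold, adjusted p = 0.00227) and Nr1d1 fell by 1.09 ± 0.30 on the log2 scale (adjusted p = 0.00858). The third call, Hlf at 0.60 ± 0.23 (adjusted p = 0.0434), is likewise a description, since 1 of its 8 spots in this comparison passes the spot filter. With 90/5, Nfil3 differed by -0.80 ± 0.42 (adjusted p = 0.271) and Nr1d1 by 0.69 ± 0.30 (adjusted p = 0.181). In limma 2 members had an unadjusted p under 0.05 with 90/5, Tef and Nr1d1, beside 23.3% and 21.8% of genes, and the methods' t-test passed 1, beside 17.1% and 17.4%. The Nfil3 call held in all 44 alternatives. That of Nr1d1 was lost in 3, without array 3 (-1.17, adjusted p = 0.0573), array 4 (-1.02, adjusted p = 0.092) or array 5 (-0.85, adjusted p = 0.0534), and that of Hlf in 22, among them without array 5 (0.39, adjusted p = 0.185).

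Within slide 2, between 90/5 2 hr and 18/1 5 hr, 0 of 9 members were called, beside 12.9% and 8.94% of genes. Here 2 members had an unadjusted p under 0.05 in limma, beside 30.6% and 27.1% of genes: Tef was higher at 90/5 2 hr by 0.78 ± 0.28 (adjusted p = 0.0702) and Nr1d1 by 0.76 ± 0.30 (adjusted p = 0.113). The count of 0 called was the same in 40 of 45 alternatives. The Tef difference was called with samples centred on their medians (1.58, adjusted p = 0.00158), where the median of all genes moved from 0.16 to 0.83. It was also called without array 6 (1.30, adjusted p = 0.000748) or array 8 (1.04, adjusted p = 0.0174). Of the 9, the methods' t-test passed 0, beside 16.7% and 15% of genes. The Nfil3 difference was -0.35 ± 0.42. In the other comparison within a slide, 18/1 2 hr with unstimulated neurons, the largest member differences were those of Bhlhe40 (0.69) and Nfil3 (0.67).

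The other genes of the clock were followed as a list of 23 names that the array carries, of which 20 were tested, beside the shares of all genes called given above. After 5 hr of 18/1, 10 of the 20 were called against unstimulated neurons, 7 higher and 3 lower. They were led by Cry2, a partner of the Period proteins (2.71 ± 0.39, adjusted p = 2.44e-05), Ccrn4l, which encodes nocturnin (2.16 ± 0.42, adjusted p = 0.000454), and Csnk1a1, a casein kinase (1.65 ± 0.35, adjusted p = 0.000843). After 2 hr of 90/5, 1 of 20 was called, Cry2 (2.05 ± 0.39, adjusted p = 0.00238). At 18/1 2 hr and at 90/5 5 hr 0 of 20 were called in limma, with 0 and 1 at an unadjusted p under 0.05. The median difference of the list from unstimulated neurons was -0.05 and 0.19 after 2 hr and 5 hr of 18/1, and 0.20 and 0.02 after 2 hr and 5 hr of 90/5, where all genes had the medians given with the members.

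Between the patterns, Cry2 was higher with 90/5 at 2 hr (2.27 ± 0.39, adjusted p = 0.00119, the only 1 of 20 called) and lower with it at 5 hr (-2.2 ± 0.39, adjusted p = 0.000146), the same order as Nfil3. As for Nfil3, the higher group lay on slide 2 in both comparisons and the lower on another slide. Within slide 2 Cry2 was not called (-0.66 ± 0.39, adjusted p = 0.255). Slide and condition cannot be told apart in this order. At 5 hr 10 of the 20 were called, 3 higher and 7 lower with 90/5, among them Csnk1a1 (-1.57 ± 0.35, adjusted p = 0.00114). From 2 hr to 5 hr of 18/1 9 of 20 were called, led by Cry2, Csnk1a1 and Btrc, which tags Period proteins for destruction (1.69 ± 0.35, adjusted p = 0.000663). From 2 hr to 5 hr of 90/5 2 of 20 were called, among them Cry2 (-1.54 ± 0.39, adjusted p = 0.0145). Within slide 2 the genes called were Bhlhe41, the close relative of Bhlhe40 (1.31 ± 0.25, adjusted p = 0.00486), and Fbxl21 (1.03 ± 0.31, adjusted p = 0.0355), both higher at 90/5 2 hr than at 18/1 5 hr.

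Markers of other cells were examined beside these results. The summed signal of the 9 sensory neuron markers lay between 18.19 and 18.86 in all samples. That of 6 fibroblast markers was 14.09 to 15.45 in unstimulated neurons, 14.79 to 15.76 at 18/1 2 hr, 16.04 to 16.23 at 18/1 5 hr, 14.38 to 16.31 at 90/5 2 hr and 14.37 to 15.45 at 90/5 5 hr. In this fibroblast sum every 18/1 5 hr sample, where Nfil3 was high and Nr1d1 low, was thus above every unstimulated sample. The astrocyte sum given below was also higher in every 18/1 5 hr sample. At 18/1 5 hr 1 of 6 fibroblast markers was called, higher, as were 1 of 4 macrophage markers (higher), 2 of 5 Schwann and satellite cell markers tested (lower) and 1 of 2 endothelial markers (lower). Also called were 2 of 9 sensory neuron markers (1 in each direction) and 2 of 2 spinal motor neuron markers tested (1 in each direction). Of 3 astrocyte markers 0 were called. In this comparison 44.6% and 37% of all genes were called. The 2 endothelial markers summed to 8.58 to 9.03 in unstimulated neurons and to 7.59 to 7.80 at 18/1 5 hr, with Cdh5 not well above background in the unstimulated samples. The summed signals of 6 Schwann and satellite cell markers (16.05 to 16.19 and 14.94 to 16.35), 4 macrophage markers (11.21 to 11.52 and 11.25 to 11.87) and 3 astrocyte markers (9.05 to 9.56 and 9.68 to 11.42) are given for unstimulated neurons and 18/1 5 hr. At 90/5 2 hr, where Nfil3 was also called, the endothelial sum was 7.55 to 8.51, below every unstimulated sample, and the Schwann and satellite cell (15.98 to 16.32), macrophage (11.39 to 11.75) and astrocyte (9.25 to 10.18) sums overlapped with those of unstimulated neurons. The part of these markers in the members' differences was not tested.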

How the data were processed

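The authors deposited, per array and colour, intensities of 44397 spots (mean) and of their local background (median), as extracted with Agilent Feature Extraction and not normalized. Per the file headers the software was version 10.7.1.1 for slide 1 and 10.7.3.1 for slides 2 and 3. Its marks for non-uniform, saturated and well-above-background spots were used unchanged, and 36 further columns per colour and array were not used. The work used R 4.3.3, limma 3.58.1 and the data.table package (1.17.8). Background was subtracted (normexp, offset 50), colours were normalized within arrays (loess, control spots at weight 0) and arrays to each other (Aquantile). The main filter kept spots whose foreground was at least 2 times background and that carried no non-uniform mark in all 20 samples, which left 10355 genes, each with its brightest probe. Members that failed it took their values from the fit of the 18744 genes that passed in all 4 samples of a condition. All samples were fitted together, with condition and colour as terms, array as a random block (correlation 0.529 and 0.639) and empirical Bayes moderation. P-values were adjusted within each of 9 comparisons by the Benjamini-Hochberg method at 0.05. Samples share arrays, pooling is not documented sample by sample, and p-values measure the spread between these samples, with a precision limited by 2 arrays per condition. The labels do not settle the colour of each replicate of 18/1 5 hr and 90/5 2 hr, and array numbers name those samples here.

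The methods' t-test was run on linear values at an unadjusted 0.05, with a minimum fold change of 1.4 and a further fold limit from the coefficient of variability, whose form is assumed. The other alternatives were no background subtraction, quantile or median scaling, other spot filters, saturated probes left out, every probe, no colour term, no array block, array means, only the conditions compared, the slide as a block, a replicate block, and each sample and array left out in turn. Chosen after the data were seen were the background rule alone, leaving out slide 2, leaving out arrays 5, 6 and 8, and a replicate block of unstimulated and 18/1 2 hr alone. Replicate numbers were checked for pairing by correlating the deviations of like-numbered samples from their condition means over all genes. Between unstimulated and 18/1 2 hr all 4 pairs correlated, at 0.411 to 0.716 (0.133 to 0.555 with colour removed), so the numbers were taken to pair these samples. With 90/5 5 hr they were not, the correlations being 0.485 and 0.649 for replicate 1 but as low as -0.0529 for the others. Unlike-numbered samples were not compared, so the pairing is an assumption. The members, gene lists and marker lists were chosen with earlier results of these data known. The genes named are all 10 members and, of the other clock genes, up to 3 called per comparison with the smallest adjusted p, with 4 activity-regulated genes as a check of the stimulation. Probe positions are those of the deposited annotation (mm9), and promoters are RefSeq's (GRCm38.p6). Figures were drawn in Python 3.11.15 with matplotlib 3.10.9. Values of some single genes of the clock and marker lists are not reported here.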

Additional observations from a re-analysis of the deposited data

Results flagged for a closer look

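Single samples stood apart from the other 3 of their group in 2 of the 45 sets of 4 values examined (9 members in 5 conditions), where chance alone gives about 1 in 20. Nr1d2 read 8.5 in unstimulated replicate 3 against 8.96 to 9.06 in the others, and Hlf read 7.0 in unstimulated replicate 4 against 7.22 to 7.25.

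Effects of stimulation differed between patterns or times, by a limma test of the difference, for Nfil3 and Nr1d1. Values of Hlf are listed beside them. Between patterns, Nfil3 differed by 1.51 at 2 hr (90/5 minus 18/1) and by -1.15 at 5 hr, Hlf by -0.6 at 5 hr and Nr1d1 by 1.45 at 5 hr. Between 5 hr and 2 hr of 18/1, Nfil3 differed by 1.86, Hlf by 0.6 and Nr1d1 by -1.09. The Hlf values are descriptions, since 3 of 8 spots (patterns) and 1 of 8 (times) pass the spot filter. In each of these 7 differences 1 group lay on slide 2 and the other on slide 1 or 3, so slide and condition cannot be separated in them.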

How the results depend on the processing

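Of the 12 differences called among the members, 4 were called in every alternative that could be computed: Nfil3 and Nr1d1 at 18/1 5 hr against unstimulated, Nfil3 at 18/1 5 hr against 18/1 2 hr, and Nr1d1 at 90/5 5 hr against 18/1 5 hr. Of the 69 differences not called, 30 were called in at least 1 of the 49 alternatives. The direction reversed in 1 called result, Bhlhe40 at 18/1 5 hr, at -0.04 with samples centred on their medians, a scaling that moved the median of all genes there from -0.23 to -0.81.

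The number of members called at 18/1 5 hr against unstimulated, 4, became 2 with the spot filter by condition, no spot filter, saturated probes left out, array means, only the conditions compared, the methods' t-test after adjustment, or the background rule alone, 3 with no background subtraction, quantile or median scaling, and 6 with no array block. At 18/1 2 hr, 0 became 2 with the methods' t-test and 1 with a replicate block of that comparison alone. Between times of 18/1, 3 became 2 with no spot filter, array means, only the conditions compared or the adjusted methods' t-test, and 4 with quantile scaling or no array block. At 90/5 2 hr, 1 became 2 with median scaling, 4 with no array block, 3 with the methods' t-test, 0 after its adjustment, and 3 without arrays 5, 6 and 8. At 90/5 5 hr, 0 became 2 with no array block or only the conditions compared, and 3 with the methods' t-test, the replicate block, without slide 2, or without arrays 5, 6 and 8. For 90/5 against 18/1 at 2 hr, 1 became 0 with no background subtraction, no spot filter, saturated probes left out, every probe, array means, only the conditions compared, or the methods' t-test before and after adjustment, and 2 with no array block or without arrays 5, 6 and 8. At 5 hr, 3 became 5 with median scaling, 2 with array means, and 1 with no spot filter, only the conditions compared or the adjusted methods' t-test. These counts are over the 9 members tested. Without a spot filter Per3 was tested too and was called in that comparison alone (0.96, adjusted p = 0.0185), with no 18/1 5 hr spot well above background. For 90/5 5 hr against 90/5 2 hr, 0 became 3 with no array block and 1 with the methods' t-test or without arrays 5, 6 and 8. For 90/5 2 hr against 18/1 5 hr, 0 became 2 with median scaling or no array block. With single samples or arrays left out, the counts ran from 2 to 5 at 18/1 5 hr, 0 to 4 at 90/5 2 hr, 0 to 0 at 18/1 2 hr and at 90/5 5 hr, 0 to 4 and 1 to 3 between patterns at 2 hr and 5 hr, 1 to 5 between times of 18/1, 0 to 3 between times of 90/5, and 0 to 2 within slide 2. The cause of these changes was not tested.

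With the replicate number as a block in the 3 conditions that carry one, Bhlhe40 (1.12, adjusted p = 0.00689), Nfil3 (1.38, adjusted p = 0.0122) and Tef (-0.71, adjusted p = 0.0292) were called at 90/5 5 hr, 3 in place of 0, in a fit that also leaves out slide 2. With that block on unstimulated and 18/1 2 hr alone, Bhlhe40 was called (0.69, adjusted p = 0.0396). Neither block changed another member's call. The slide as a block was run for the comparisons within a slide alone, since no other slide holds both groups. Hlf, Per3, the second Per1 probe and Nr1d1 on arrays 5 and 8 lay near background, which limits their differences.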
